A study of Danio rerio with 6 samples.

Results

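Oxidative phosphorylation genes were followed through the cell and nucleus classes of zebrafish carrying BRAF-V600E melanomas. The genes were chosen by symbol alone, as every gene whose symbol starts with nduf, sdh followed by a letter from a to d, uqcr, cox4 to cox8, atp5 or mt-. The rule took 119 of the 32268 genes and transgenes in the count tables, of which 106 are coded in the nucleus and 13 carry the mt- prefix of the mitochondrial genome. Of the nuclear-coded genes, 38 belong to complex I, 5 to complex II, 8 to complex III, 25 to complex IV and 16 to complex V, and 14 are assembly factors or relatives of complex subunits. At least 1 transcript of 118 of the 119 genes was counted both in cells and in nuclei, and NDUFA4L2 (1 of many) had a count of 0 in both.

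Oxidative phosphorylation takes electrons from nutrients through complexes I to IV of the inner mitochondrial membrane and uses the proton gradient that they build to make ATP at complex V. Most subunits are coded in the nucleus and imported, while the mitochondrial genome codes for the core subunits at the centre of complexes I, III, IV and V. Complex IV, cytochrome c oxidase, is the step at which oxygen is reduced, and several of its subunits exist as paralogs that in mammals are used in different tissues, among them the muscle forms of COX6A, COX7A and COX8. Melanomas are known to differ from one another in how far they rely on this pathway.

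All fish were adult casper zebrafish, a line with little pigment, with the genotype mitfa-BRAFV600E; p53-/-; mitfa-/-. As embryos they had been injected with mitfa-MITF and mitfa-GFP plasmids, so that the oncogene, the rescue and the GFP label are all driven by the mitfa promoter of pigment cells, and every fish had a tumor. Dissociated cells of the tumor and its surroundings were sequenced as samples E and F, each sorted to equal numbers of GFP-positive and GFP-negative cells. Nuclei were likewise sorted to about equal numbers of GFP-positive and GFP-negative nuclei. Those of 3 fish were pooled in 1 reaction, with hashtags that name the fish (Zebra1, Zebra2 and Zebra3). The classes compared are tumor cells, dividing tumor cells and cells with ckba, neb and ak1, against leukocytes, erythrocytes, skeletal muscle and liver of the same tumor-bearing fish. No tumor-free fish was part of the design, so each comparison is between cell classes within tumor-bearing animals.

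Of the barcodes deposited as cells, 1780 of 1911 in sample E and 1002 of 1085 in sample F had enough genes and at most 20% mt- transcripts, with a median of 16265 and 8879 transcripts (unique molecular identifiers, UMIs). No cell barcode was shared by the samples. Of 13380 nuclei with at least 500 UMIs, 9657 carried exactly 1 hashtag, and the median nucleus had 2160.5 UMIs. For every class, UMIs of the 119 genes were added up within each sample or fish, which gave 14 classes in cells and 14 in nuclei. A class name stands for likeness to a list of marker genes. The 119 genes took no part in forming the classes. The tumor marker list (BRAF, EGFP, mitfa, pmela and others) summed to a counts-per-million level (CPM, scaled to all UMIs of the class) of 5987 and 8392 in tumor cells of samples E and F, and to 5635, 6509 and 6396 CPM in tumor nuclei of Zebra1, Zebra2 and Zebra3. The lymphocyte class held few T-cell transcripts and a B-cell list of 8121 CPM in sample E against 206 CPM in sample F, and it stands for the natural killer cell class of the comparison.

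In dissociated cells, tumor cells were in the middle of the 14 classes for nuclear-coded oxidative phosphorylation transcripts and near the bottom for mt- transcripts. Nuclear-coded transcripts of tumor cells summed to 14977 and 15357 CPM in samples E and F (15167 ± 268 CPM, SD, n = 2), rank 7 of 14. Their mt- transcripts summed to 10539 and 9269 CPM (9904 ± 898 CPM, SD, n = 2), rank 11 of 14. Macrophages were highest for mt- transcripts, at 27286 and 28215 CPM, with 21475 and 20791 CPM of nuclear-coded transcripts. The order of classes for nuclear-coded transcripts was thus not the order for mt- transcripts.

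The 2 sums were most unlike in germ cells. Cells with the germ cell gene ddx4, found in sample F alone, had 23328 CPM of nuclear-coded transcripts (exact Poisson 95% interval 22914 to 23748) and 8149 CPM of mt- transcripts (7905 to 8399). These intervals cover counting error only. The 19 cells with ckba, neb and ak1, also from sample F, had 21183 CPM of nuclear-coded transcripts (20342 to 22049) and 5896 CPM of mt- transcripts (5457 to 6362). In the summed UMIs both classes had a higher nuclear-coded and a lower mt- level than tumor cells of the same sample. As a mean over cells the mt- level was 10041 CPM in ddx4 cells and 7145 CPM in ckba cells. The mt- order of ddx4 and tumor cells is thus given for the summed UMIs only. The ratio of nuclear-coded to mt- transcripts was 3.59 in the ckba cells and 2.86 in the ddx4 cells, against 1.54 ± 0.17 in tumor cells and 0.762 ± 0.035 in macrophages (SD, n = 2 each).

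**Figure D1:**
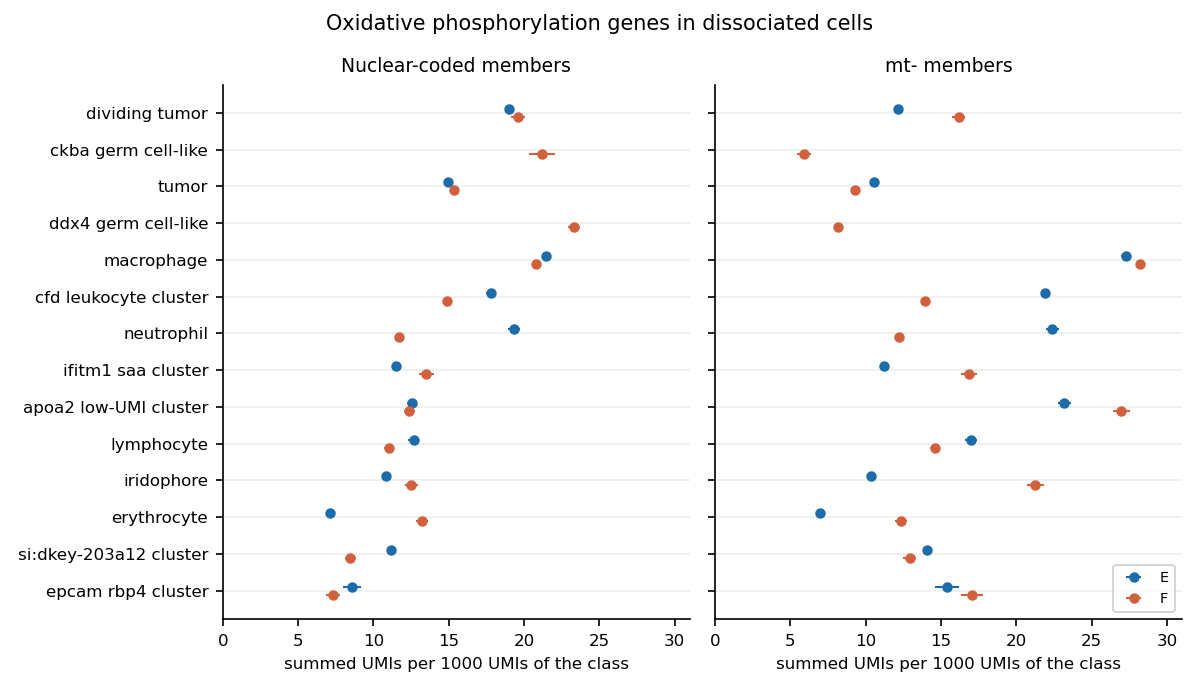
Summed nuclear-coded (left) and mt- (right) oxidative phosphorylation transcripts of each cell class, in UMIs per 1000 UMIs of the class; each point is sample E or F with its exact Poisson 95% interval. Tumor cells lie at about the same nuclear-coded level in both samples (14977 and 15357 CPM), while macrophages stand apart in mt- transcripts at 27286 and 28215 CPM.

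Tumor cells were then set against leukocytes, taken as the mean of the macrophage, neutrophil and lymphocyte classes. The leukocyte classes with cfd (82 cells) and with si:dkey-203a12 genes (82 cells) were not part of this comparison. The word leukocytes does not cover them here or below. Nuclear-coded transcripts did not differ in one direction: the tumor sum was 0.841 times that of leukocytes in sample E and 1.06 times in sample F (log2 ratio -0.08 ± 0.24, SD, n = 2). The mt- sum in tumor cells was 0.474 times that of leukocytes in sample E and 0.505 times in sample F (log2 ratio -1.03 ± 0.06, SD, n = 2). With 2 samples on each side an exact permutation test that ignores the pairing by sample cannot give a two-sided p below 0.333. A paired one has a higher floor, so the sums were described and not tested.

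Gene by gene, edgeR's quasi-likelihood test with Benjamini-Hochberg adjustment over 11547 genes called 3 of the 96 nuclear-coded genes tested higher and 0 lower in tumor cells than in leukocytes, where it called 12.3% of all genes higher and 7.89% lower. An unadjusted p under 0.05 was reached by 15 of the 96, where 3691 of the 11547 genes reached it. DESeq2 called 5 higher and 4 lower, where it called 10.5% of all genes higher and 10.7% lower. The fit with the sample as a block called 7 higher and 1 lower, where 16.3% of all genes were higher and 10.6% lower. In each of these counts the share of nuclear-coded genes was below that of all genes. All of the 13 mt- genes were below the median of all genes, with a median log2 fold change of -1.01 relative to it, but none passed the test (1 at an unadjusted p under 0.05; 5 lower by DESeq2). From each fold change of the main edgeR fit the median over all genes tested in that comparison was subtracted. Here it was 0.30 on the log2 scale. The SE and p beside a fold change come from the fit before that subtraction.

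The 3 genes that rose were 2 isoforms of complex IV and 1 accessory subunit of complex I, and all 3 also passed when counts were scaled by library totals in place of edgeR's trimmed-mean (TMM) factors, where 9.25% of all genes were called higher. cox4i2, the alternative form of COX4 that is known in mammals from lung and from low oxygen, had 51.2 and 140 CPM in tumor cells of samples E and F, against 10.1 and 2.82 CPM in macrophages, 11 and 11.8 CPM in neutrophils and a count of 0 in lymphocytes of both samples (edgeR, Benjamini-Hochberg adjusted p = 3.4e-05). The tumor samples did not overlap any leukocyte sum for this gene. ndufv3, a subunit of the NADH-oxidising arm of complex I, had 62.3 and 116 CPM in tumor cells, against 33.2 and 27.5 CPM in macrophages, 11 and 10.6 CPM in neutrophils and 39.4 and 27.5 CPM in lymphocytes (log2 fold change 1.98 ± 0.47, SE, adjusted p = 0.0019 by edgeR). cox7a1, the muscle form of COX7A in mammals, had 10.0 and 79.1 CPM in tumor cells, against 13.8 and 12.7 CPM in macrophages, 0 and 4.73 CPM in neutrophils and 5.63 and 9.82 CPM in lymphocytes (2.65 ± 0.82, SE, adjusted p = 0.014 by edgeR). In sample E the cox7a1 level of tumor cells lay within the range of the leukocytes. Without sample F the adjusted p of edgeR was 0.424 for cox7a1 and 0.192 for ndufv3, and without sample E it was 0.055 for cox7a1.

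The mt- genes did not all keep tumor cells and leukocytes apart. mt-co2, the member with the most transcripts in cells and a core subunit of complex IV, had 3288 and 1501 CPM in tumor cells of samples E and F, against 8021 and 7420 CPM in macrophages, 6525 and 2941 CPM in neutrophils and 4613 and 3278 CPM in lymphocytes. mt-atp6, the proton channel subunit of complex V, had 790 and 2393 CPM in tumor cells, against 2242 and 2658 CPM in macrophages, 2451 and 1404 CPM in neutrophils and 1354 and 1526 CPM in lymphocytes. Both genes overlapped between tumor cells and leukocytes, mt-co2 through tumor cells of sample E and mt-atp6 through those of sample F. Within each sample, though, mt-co2 was lower in tumor cells than in every leukocyte class. In sample F mt-atp6 was higher in tumor cells than in neutrophils and lymphocytes. mt-co1, the catalytic subunit of complex IV, had 2139 and 1460 CPM in tumor cells, against 4473 and 5225 CPM in macrophages, 3682 and 2471 CPM in neutrophils and 3433 and 3168 CPM in lymphocytes. mt-cyb, the cytochrome b subunit of complex III, had 1130 and 1007 CPM in tumor cells, against 3001 and 3289 CPM in macrophages, 2466 and 1444 CPM in neutrophils and 1568 and 1536 CPM in lymphocytes. mt-co3 had 1836 and 1259 CPM in tumor cells, against 5508 and 5092 CPM in macrophages, 4162 and 1970 CPM in neutrophils and 3306 and 2469 CPM in lymphocytes. For mt-co1, mt-cyb and mt-co3, each tumor sum was below each leukocyte sum. Scaled by library totals, mt-co3 alone of the mt- genes passed (log2 fold change -1.22, edgeR adjusted p = 0.045), where 8.69% of all genes were called lower.

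The order of tumor cells and erythrocytes depended on whether hemoglobin transcripts were counted in the totals. In tumor cells the nuclear-coded sum was 14977 CPM (E) and 15357 CPM (F), against 7105 and 13230 CPM in erythrocytes, and the mt- sum was 10539 and 9269 CPM against 6982 and 12329 CPM. Erythrocytes of sample F were few: their main cluster held 12 cells, where it held 168 in sample E. The class of sample E also held clusters of 59 and 40 cells. The nuclear-coded sums of these clusters in sample E were 7155 CPM (168 cells), 3183 CPM (59 cells) and 8322 CPM (40 cells). Genes of hemoglobin, of the exocrine pancreas and of the mitochondrial genome took 58.3% of erythrocyte UMIs in sample E and 25.6% in sample F. With those genes left out of the totals, the nuclear-coded sum was 15143 and 15501 CPM in tumor cells against 17035 and 17788 CPM in erythrocytes, so the order was turned round. The edgeR test called 0 nuclear-coded genes higher and 1 lower, where 6.63% of all genes were higher and 4.88% lower. At an unadjusted p under 0.05 there were 7 of 96, where 24.2% of all genes reached it. DESeq2 called 1 higher and 5 lower, where 8.27% of all genes were higher and 5.71% lower, and the fit with the sample as a block called 2 higher, where 9.9% were higher. On library totals 5 nuclear-coded genes were higher, where 15.3% of all genes were, and the median log2 fold change of the nuclear-coded genes, which was -0.54 relative to all genes on the TMM scale, was 0.74 on library totals beside 1.26 for all genes. The gene that fell was cox5b2, a zebrafish paralog of the COX5B subunit, with 2.11 and 1.72 CPM in tumor cells against 50.7 and 103 CPM in erythrocytes (log2 fold change -6.47 ± 1.33, SE, edgeR adjusted p = 0.0054). It was also called lower on library totals, but without sample E its adjusted p was 0.199 and without sample F 0.109.

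Dividing tumor cells, the class that holds the tumor-like interface state of the study, had more nuclear-coded transcripts than the summed tumor cells in both samples. Their sum was 19031 and 19609 CPM in samples E and F (19320 ± 409 CPM), against 14977 and 15357 CPM in tumor cells (15167 ± 268 CPM, SD, n = 2 each), which is 1.27 and 1.28 times as much. The gap was wider than the spread between the samples, though the class of sample F rests on 15 cells. Single clusters of tumor cells ran from 8040 to 25822 CPM, and some lay above the dividing class, at 22684 and 25822 CPM for the cluster with the smallest libraries and at 24763 CPM for another in sample F. Their mt- sum was 12158 and 16173 CPM, where tumor cells had 10539 and 9269 CPM, so it was higher in 2 of 2 samples, by 1.15 times in sample E and 1.74 times in sample F. The spread of the dividing class was wide (14166 ± 2839 CPM, SD, n = 2). The list of cell division genes summed to 1982 and 1763 CPM in dividing tumor cells and to 103 and 94.2 CPM in tumor cells. No single oxidative phosphorylation gene passed the edgeR test (0 of 109 also at an unadjusted p under 0.05, 0 by DESeq2), where 0.788% of all genes were higher and 0.0% lower. The median log2 fold change relative to all genes was 0.11 for the nuclear-coded genes and 0.28 for the mt- genes. In simulated counts, with changed genes drawn at random from all genes, edgeR recovered 5% of 4-fold changes in this comparison. Genes that were not called may thus still differ, though the recovery for these genes themselves was not measured.

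The 19 cells with ckba, neb and ak1 hold what the study named a muscle-like interface state. In these data their male germ cell list summed to 15774 CPM with 14 of 15 markers detected, the list of ckba, neb and ak1 to 7820 CPM, the list of skeletal muscle markers to 177 CPM with 3 of 18 detected and the tumor list to 79.8 CPM. The labelled muscle likeness therefore rests on the ckba list, and the cells are called ckba germ cells here. Sample E held 4 such cells and was not summed, so the comparison rests on 1 library of 112781 UMIs and takes its spread from the other classes.

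A few genes separated ckba germ cells from tumor cells on both scales, while many of the calls belonged to 1 scale alone. On the TMM scale, edgeR called 2 nuclear-coded genes higher and 27 lower, where 11.3% of all genes were higher and 15.5% lower. On library totals it called 9 higher and 5 lower, where 20.4% were higher and 4.23% lower, and the mt- genes lower were 9 on the TMM scale and 0 on library totals. The TMM factor of this library was 3.26, against 0.833 and 0.876 in tumor cells. The median log2 fold change of all genes was -1.66 on the TMM scale, and fold changes are given after its subtraction. The SE and p beside them come from the fit before it. Relative to that median, the nuclear-coded genes had a median of 0.27. cox5b2 was the gene highest above tumor cells, with 816 CPM in ckba germ cells and 2.11 and 1.72 CPM in tumor cells of samples E and F (log2 fold change 8.44 ± 1.44, SE, edgeR adjusted p = 0.0024). atp5s, a relative of a proton-channel coupling factor of complex V, had 151 CPM in ckba germ cells and 5.64 and 4.80 CPM in tumor cells (4.6 ± 1.0, SE, edgeR adjusted p = 0.035, and 0.0907 without sample E). The ddx4 germ cells had 377 CPM of cox5b2 and 61.9 CPM of atp5s.

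Other complex IV and V genes lay below tumor cells. cox6b1, a subunit on the intermembrane-space side of complex IV, had a count of 0 in ckba germ cells and 636 and 289 CPM in tumor cells of samples E and F, which with a floor of 3 counts is at least 10.9-fold lower than in tumor cells of sample F. cox4i2 also had a count of 0 in ckba germ cells, against 51.2 and 140 CPM in tumor cells, at least 5.26-fold lower than in sample F. uqcrc1, a core protein of complex III, had 8.87 CPM in ckba germ cells against 132 and 102 CPM in tumor cells (log2 fold change -3.92 ± 0.99, SE, edgeR adjusted p = 0.00066). atp5d, a subunit of the central stalk of complex V, had 17.7 CPM against 150 and 167 CPM (-3.37 ± 0.86, SE, edgeR adjusted p = 0.00053). These 4 genes and atp5j were called lower on both scales. Each of the low values of this class is 0 to 2 UMIs, except for atp5j. In ddx4 germ cells, cox6b1 was at 96.7 CPM, cox4i2 at 1.93 CPM, uqcrc1 at 120 CPM and atp5d at 315 CPM.

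In nuclei the class with oocyte markers held the most nuclear-coded and the fewest mt- transcripts. Its nuclear-coded transcripts summed to 26910 CPM in Zebra1 and 28010 CPM in Zebra2, and its mt- transcripts to 594 and 481 CPM, a ratio of 51.8 ± 9.1 (SD, n = 2). Zebra3 had too few oocyte nuclei for a sum. Tumor nuclei had 5809, 7594 and 5454 CPM of nuclear-coded transcripts in Zebra1, Zebra2 and Zebra3 (6286 ± 1147 CPM) and 6292, 6513 and 4706 CPM of mt- transcripts (5837 ± 986 CPM, SD, n = 3), rank 11 of 14 for both. Intestine nuclei had 14783, 21345 and 17699 CPM of nuclear-coded transcripts, so that the tumor, intestine and oocyte classes did not overlap.

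Nuclei carry transcripts from outside the nucleus too. Barcodes with 1 to 99 UMIs, taken as the free RNA of the suspension, held 18580 CPM of nuclear-coded and 7838 CPM of mt- transcripts, and their oocyte marker list was at 12427 CPM. The oocyte list was at 1090, 2022 and 685 CPM in tumor nuclei, 1018, 1301 and 825 CPM in skeletal muscle nuclei and 597, 726 and 672 CPM in liver nuclei of Zebra1, Zebra2 and Zebra3. If all of these oocyte transcripts were free RNA, it would carry 28.1%, 39.8% and 18.8% of the nuclear-coded sum of tumor nuclei, 14.1%, 14.3% and 18.5% of that of skeletal muscle nuclei and 11.7%, 11.7% and 15.3% of that of liver nuclei. Its part in the differences was not tested.

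**Figure D2:**
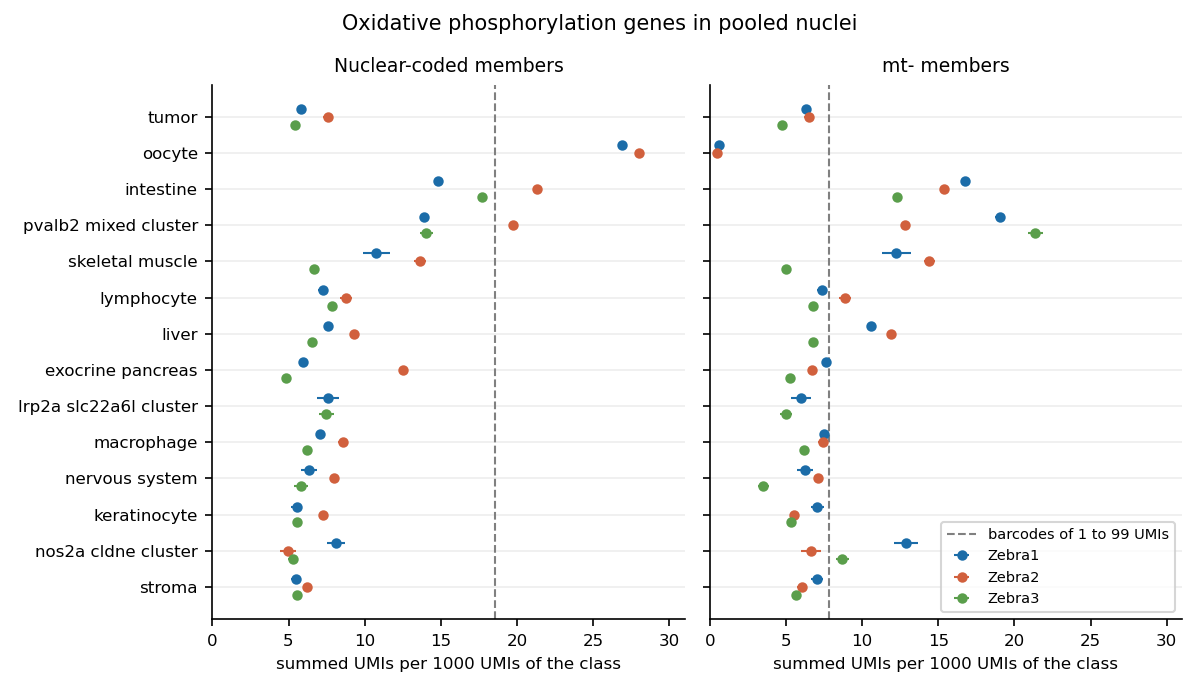
Summed nuclear-coded (left) and mt- (right) oxidative phosphorylation transcripts of each nucleus class, in UMIs per 1000 UMIs of the class; each point is 1 fish with its exact Poisson 95% interval, and the dashed line is the level in barcodes of 1 to 99 UMIs. Oocyte nuclei lie at the top on the left (26910 and 28010 CPM) and at the bottom on the right (594 and 481 CPM), and tumor nuclei are among the low classes in both panels.

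Tumor nuclei had fewer oxidative phosphorylation transcripts than skeletal muscle nuclei in each fish. The nuclear-coded sum was 5809, 7594 and 5454 CPM in tumor nuclei of Zebra1, Zebra2 and Zebra3, against 10762, 13632 and 6678 CPM in muscle nuclei, which is 0.540, 0.557 and 0.817 times as much (log2 ratio -0.68 ± 0.33, SD, n = 3). The mt- sum was 6292, 6513 and 4706 CPM in tumor nuclei, against 12232, 14422 and 4969 CPM in muscle nuclei, or 0.514, 0.452 and 0.947 times as much. In Zebra3 the mt- sums of tumor and muscle nuclei were close. Both classes come from the same 3 fish. An exact permutation test that ignores this pairing cannot give a two-sided p below 0.1, and a paired one has a higher floor. The skeletal muscle list summed to 45894, 71501 and 39964 CPM in muscle nuclei and to 753, 1677 and 570.5 CPM in tumor nuclei, and the cardiac list reached 1960 CPM in muscle nuclei of Zebra1.

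The genes that fell against muscle belonged to all 5 complexes on the TMM scale, and those with the largest change were isoforms of complex IV. On the TMM scale edgeR called 2 of 94 nuclear-coded genes higher and 26 lower and 3 of 10 mt- genes lower, where 11.5% of the 14992 genes were higher and 9.95% lower. A fit that kept the fish as a block gave 5 lower mt- genes. On library totals 12 of the 26 remained, together with mt-nd3 and mt-nd4, subunits of complex I, where 8.32% of all genes were lower. Of those 12, 5 belong to complex IV, 3 to complex V, 2 to complex I and 2 to complex III, of which 22, 16, 36 and 8 genes were tested. The median log2 fold change of nuclear-coded genes was -1.17 relative to all genes on the TMM scale. On library totals, without that subtraction, it was -0.59 beside 0.58 for all genes.

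cox5b2, which set erythrocytes and ckba germ cells apart from tumor cells, had 8.87, 19.6 and 6.63 CPM in tumor nuclei, against 132, 262 and 112 CPM in muscle nuclei (log2 fold change -4.70 ± 0.53, SE, edgeR adjusted p = 3.5e-08). cox6a2, the muscle form of COX6A in mammals, had 29.8, 19.6 and 23.6 CPM in tumor nuclei, against 302, 538 and 206 CPM in muscle nuclei (-4.32 ± 0.54, adjusted p = 3.2e-07 by edgeR). cox7a1 had 24.4, 23.5 and 19.2 CPM in tumor nuclei, against 132, 198 and 77.6 CPM in muscle nuclei (-3.14 ± 0.54, adjusted p = 0.0001 by edgeR). For these 3 genes the highest tumor value was well under the lowest muscle value. cox8b, a second form of COX8, had 45.3, 31.3 and 22.8 CPM in tumor nuclei, against 207, 284 and 122 CPM in muscle nuclei (-3.10 ± 0.49, adjusted p = 2.6e-05 by edgeR). ndufa4l, a relative of the NDUFA4 subunit now placed in complex IV, had 140, 102 and 98.0 CPM in tumor nuclei, against 528, 608 and 331 CPM in muscle nuclei (-2.58 ± 0.44, adjusted p = 0.00013 by edgeR). In free RNA, cox5b2 was at 44.3 CPM, cox6a2 at 77.6 CPM, cox7a1 at 60.6 CPM and cox8b at 79.9 CPM, above the level of each in every tumor fish.

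Against this direction, cox4i2 and cox6b1 rose on both scales. cox4i2 had 61.1, 118 and 45 CPM in tumor nuclei, against 0, 10.7 and 0 CPM in muscle nuclei (edgeR, Benjamini-Hochberg adjusted p = 0.0022), and 14.2 CPM in free RNA. With a floor of 3 counts, the 0 in muscle nuclei allows up to 56.5 CPM in Zebra1 and up to 6.12 CPM in Zebra3. cox4i2 was thus higher in tumor than in the other class both in cells, against leukocytes, and in nuclei, though the small muscle sum of Zebra1 cannot set the classes apart. cox6b1 had 99.5, 153 and 87.0 CPM in tumor nuclei, against 37.7, 34.8 and 26.5 CPM in muscle nuclei, with 91.5 CPM in free RNA (log2 fold change 1.21 ± 0.47, SE, edgeR adjusted p = 0.018). Leaving out any 1 fish moved its adjusted p to between 0.067 and 0.10, and its 37.7 CPM in muscle nuclei of Zebra1 is below the floor of that sum.

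Both sums were also lower in tumor nuclei than in liver nuclei. The nuclear-coded sum was 5809, 7594 and 5454 CPM in tumor nuclei of the 3 fish, against 7610, 9293 and 6571 CPM in liver nuclei, or 0.763, 0.817 and 0.830 times as much (log2 ratio -0.32 ± 0.06, SD, n = 3). The mt- sum was 6292, 6513 and 4706 CPM in tumor nuclei, against 10550, 11896 and 6774 CPM in liver nuclei, or 0.596, 0.547 and 0.695 times as much. Both sums were lower in tumor nuclei in 3 of 3 fish. The mean log2 ratio of the mt- sums was -0.71 against liver and -0.73 against muscle. The liver, muscle and tumor nuclei compared here come from the same 3 fish, and both comparisons use the same tumor sums.

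How many genes followed that direction depended on the scale. On the TMM scale edgeR called 71 of 94 nuclear-coded and 10 of 10 mt- genes lower and 2 higher, where 15.6% of all genes were lower and 17.5% higher. On library totals it called 10 nuclear-coded and 3 mt- genes lower and 7 higher, where 8.28% of all genes were lower and 51.4% higher. The TMM factors were 0.359, 0.322 and 0.626 in liver nuclei of Zebra1, Zebra2 and Zebra3 and 1.02, 1.28 and 1.123 in tumor nuclei, and the 10 most abundant genes took 16.5% to 21% of liver UMIs and 12% to 15% of tumor UMIs. Of the 71 genes called lower, 17 were above 0 on library totals. The median log2 fold change of the nuclear-coded genes was -1.69 relative to all genes on the TMM scale and -0.11 on library totals, where the median of all genes was 1.48.

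On both scales 2 nuclear-coded genes rose and 10 fell. Complex IV, with 22 of the 94 nuclear-coded genes tested, gave the 2 that rose and 6 of those that fell. cox5b2 had 8.87, 19.6 and 6.63 CPM in tumor nuclei, against 131, 154 and 76.7 CPM in liver nuclei (log2 fold change -5.24 ± 0.54, SE, edgeR adjusted p = 3.2e-10). cox6a2 had 29.8, 19.6 and 23.6 CPM in tumor nuclei, against 136, 175 and 106 CPM in liver nuclei (-4.04 ± 0.54, adjusted p = 1.3e-07 by edgeR). cox8b had 45.3, 31.3 and 22.8 CPM in tumor nuclei, against 152, 170 and 145 CPM in liver nuclei (-3.73 ± 0.49, adjusted p = 9.6e-08 by edgeR). In all 3 genes the classes did not overlap. cox7a1 had 24.4, 23.5 and 19.2 CPM in tumor nuclei, against 108, 139 and 43.7 CPM in liver nuclei (-3.78 ± 0.54, adjusted p = 4.9e-07 by edgeR). uqcrc2a, a core protein of complex III, had 27.6, 23.5 and 16.2 CPM in tumor nuclei, against 69.4, 120 and 54.4 CPM in liver nuclei (-3.46 ± 0.50, adjusted p = 7.1e-07 by edgeR). The other genes lower on both scales were ndufa4l, ndufc2, ndufa6, cox7a3 and atp5g3b.

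The genes that rose against liver on both scales were the alternative forms of COX4. cox4i2 had 61.1, 118 and 45 CPM in tumor nuclei, against 6.64, 3.39 and 4.12 CPM in liver nuclei (log2 fold change 2.3 ± 0.63, SE, edgeR adjusted p = 0.0024, and 0.0546 without Zebra2). cox4i1l, a paralog of the common COX4 form, had 77.9, 106 and 126 CPM in tumor nuclei, against 11.5, 8.98 and 13.2 CPM in liver nuclei (1.68 ± 0.46, SE, edgeR adjusted p = 0.0024, and 0.0566 without Zebra3). Neither gene overlapped between tumor and liver nuclei, and the free RNA level was 14.2 CPM for cox4i2 and 49.2 CPM for cox4i1l.

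The mt- genes of tumor nuclei fell against liver by similar amounts on the TMM scale, from a log2 fold change of -1.81 for mt-co1 to -2.63 for mt-co3 relative to all genes. mt-co3 had 1210, 1258 and 907 CPM in tumor nuclei, against 2406, 2758 and 1550 CPM in liver nuclei. mt-atp6 had 319, 439 and 262 CPM in tumor nuclei, against 554, 862 and 563 CPM in liver nuclei. mt-co1 had 1654, 1234 and 1040 CPM in tumor nuclei, against 1948, 1457 and 1190 CPM in liver nuclei. The tumor and liver ranges were apart for mt-co3 and mt-atp6. They overlapped for mt-co1, though within each fish mt-co1 was lower in tumor than in liver nuclei. On library totals mt-co3, mt-nd4 and mt-atp6 were called lower by edgeR, with log2 fold changes of -0.97, -0.95 and -0.94.

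**Figure D3:**
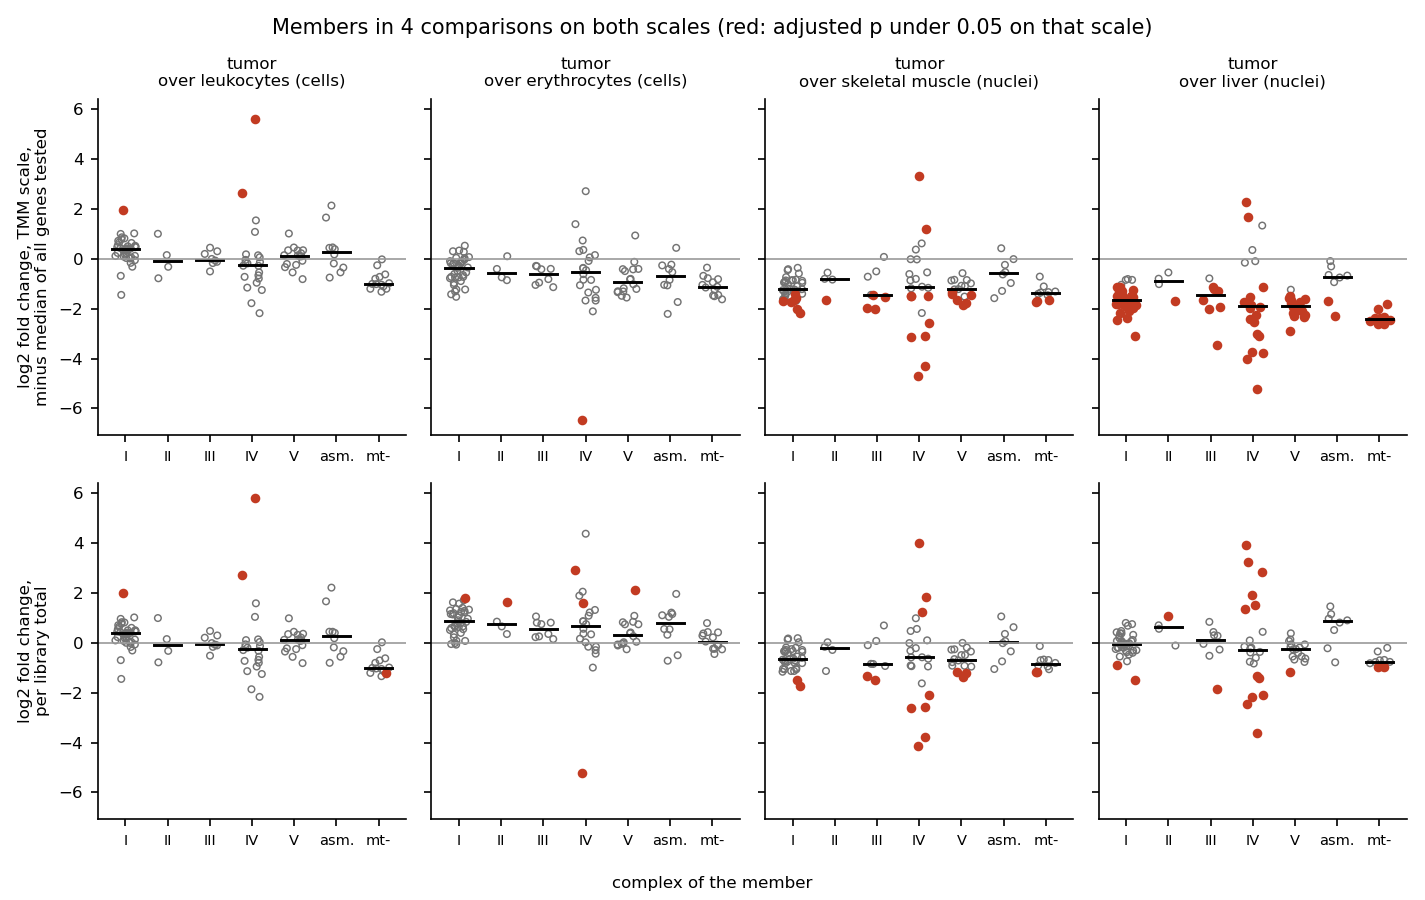
Log2 fold change of every oxidative phosphorylation gene tested, by complex (I to V, assembly factors and mt-), for tumor over leukocytes, erythrocytes, skeletal muscle and liver; the upper panels use TMM factors and subtract the median of all genes, the lower panels use library totals. Red points passed an edgeR adjusted p of 0.05 on that scale and bars mark medians. Against liver the calls go from 71 nuclear-coded genes lower in the upper panel to 10 in the lower one. Outlying complex IV points still pass, such as cox5b2 at a log2 fold change of -5.24 above and -3.60 below. The lower panels subtract no median, and against liver the median of all genes there was 1.48.

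Paralogs of complex IV were thus among the genes furthest apart against skeletal muscle and against liver, and they were followed over more classes of nuclei. In the COX6A pair, cox6a2 made 25.4%, 9.62% and 20.3% of the transcripts of the pair in tumor nuclei of Zebra1, Zebra2 and Zebra3, 80%, 87.0% and 85.6% in skeletal muscle nuclei, 79.3%, 80.8% and 62.7% in liver nuclei and 0.391% and 0.429% in oocyte nuclei of Zebra1 and Zebra2. In the COX8 pair, cox8b made 39.9%, 20.5% and 20.0% in tumor nuclei, 55%, 86.9% and 73.2% in muscle nuclei and 88.3%, 87.7% and 82.2% in liver nuclei. Tumor nuclei thus had more cox6a1 and cox8a, and muscle and liver nuclei more cox6a2 and cox8b. In free RNA cox6a2 made 19.5% and cox8b 63.1% of their pairs, so the cox6a2 share of tumor nuclei was near that of free RNA. The muscle shares of Zebra1 rest on 20 transcripts for each pair. These shares set one gene's counts against its paralog's within a class, and 3' counting reads both from their ends. Among the COX4 genes, cox4i2 made 19.1%, 26.8% and 12.5% in tumor nuclei, 1.74%, 0.776% and 1.77% in liver nuclei and 0, 1.80% and 0 in muscle nuclei. Of the COX4 transcripts of tumor cells, cox4i2 made 6.57% (sample E) and 15.7% (sample F).

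In oocyte nuclei 1 member made nearly all transcripts of the COX6A, COX6B and COX4 families, but not of COX8, where cox8b made 28.8% and 34.0% in Zebra1 and Zebra2. cox6a1 was at 666 and 706 CPM in oocyte nuclei of Zebra1 and Zebra2, with cox6a2 at 2.61 and 3.04 CPM. cox6b2 was at 643 and 702 CPM, with cox6b1 at 1.69 and 2.94 CPM. cox4i1 was at 677 and 696 CPM, with cox4i1l at 3.63 and 3.58 CPM and cox4i2 at 2.19 and 1.67 CPM. Intestine nuclei had both members of each pair: cox6b1 was at 394, 607 and 521 CPM and cox6b2 at 200, 323 and 234 CPM in Zebra1, Zebra2 and Zebra3, and cox4i1l was at 348, 383 and 301 CPM beside cox4i1 at 421, 564 and 416 CPM. ndufa4 was at 103, 114 and 112 CPM in intestine nuclei and at 0.590 and 0.401 CPM in oocyte nuclei. Oocyte nuclei also had 1804 and 1778 CPM of atp5g1 and 1613 and 2008 CPM of atp5g3b, both coding for the c ring of complex V, against 139, 227 and 83.3 CPM and 256, 388 and 244 CPM in tumor nuclei of the 3 fish.

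**Figure D4:**
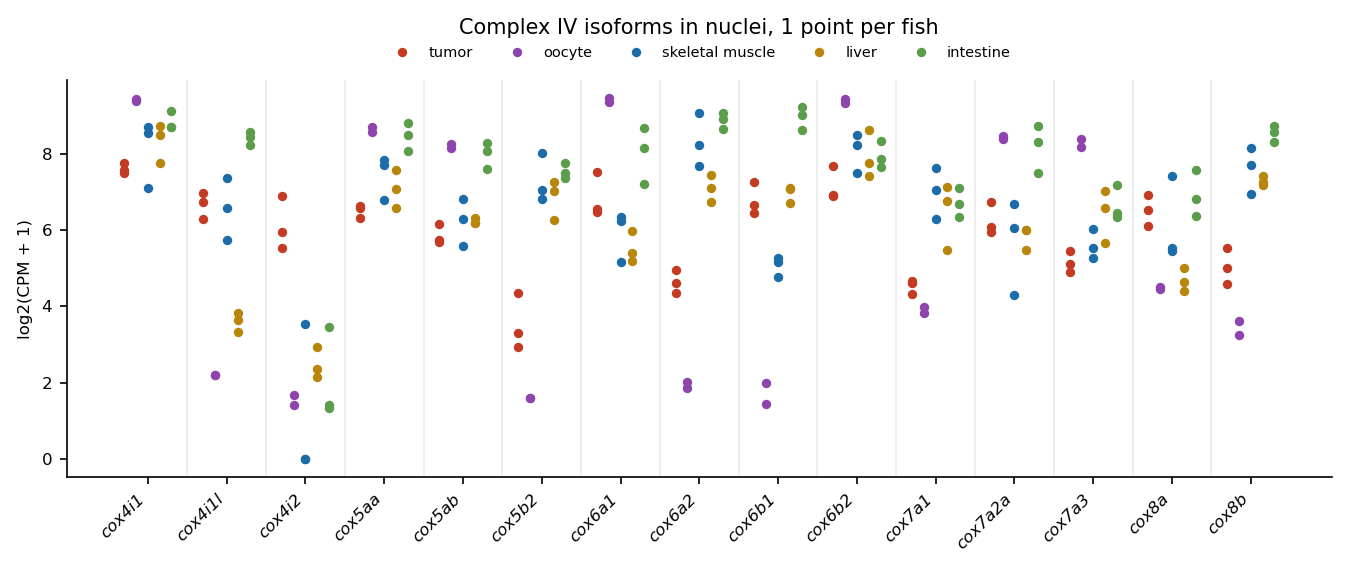
Levels of 15 complex IV subunit isoforms in tumor, oocyte, skeletal muscle, liver and intestine nuclei, as log2(CPM + 1), 1 point per fish. cox4i2 is at 45 to 118 CPM in tumor nuclei and at most 10.7 CPM in the other classes drawn, and oocyte nuclei are near 0 for cox5b2, cox6a2, cox6b1 and cox4i1l. The cox4i2 count of 0 in muscle nuclei of Zebra1 allows up to 56.5 CPM.

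The nuclear-coded sum was also divided by complex. Complex IV genes made 35.0% and 35.2% of the nuclear-coded sum in tumor cells of samples E and F, 36.0% in ckba germ cells and 41.4% and 41.0% in macrophages. Complex I genes made 18.6% and 22.9% in tumor cells, 34.0% in ckba germ cells, 27.9% in ddx4 germ cells and 17.1% and 16.5% in macrophages. The ckba germ cells thus held a larger part of complex I and, at 20.5% against 34.5% and 31.3% in tumor cells, a smaller part of complex V. In nuclei, complex IV genes made 30.5%, 29.7% and 31% of the sum in tumor, 31.2%, 32.6% and 31.3% in skeletal muscle and 25.1% and 25.3% in oocytes.

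Over all classes, most nuclear-coded genes followed the nuclear-coded sum. The Pearson correlation of a gene's log2(CPM + 5) with the log2 of that sum reached 0.88 for cox6a1 over 26 sums of cells and 0.94 for atp5c1 over 40 sums of nuclei. Of the nuclear-coded genes, cox4i2 had the lowest correlation in both, -0.26 in cells and -0.23 in nuclei. In nuclei mt-co1 was lower still, at -0.26. cox6a2 was also among the nuclear-coded genes least like the sum, at -0.06 in cells. These correlations describe points that share libraries, depth and the sum itself, and no test was made on them.

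Other genes of mitochondrial metabolism were counted beside these. Lists of the TCA cycle with pyruvate dehydrogenase (18 genes), of carriers and mobile electron carriers (14), of mitochondrial biogenesis (17) and of other assembly factors (35) were put through the same tests. Dividing tumor cells had 0 genes of these lists called against tumor cells. Against leukocytes and against erythrocytes at most 1 gene a list was called on the TMM scale. Tumor cells had 1 of 16 TCA genes lower than leukocytes on both scales, which is below the share of all genes called lower (7.89% on the TMM scale). It was suclg1, a subunit of succinate-CoA ligase, at 71.1 and 76.2 CPM in tumor cells, against 726 and 643 CPM in macrophages, 432 and 236 CPM in neutrophils and 67.6 and 64.8 CPM in lymphocytes. The lymphocytes were thus as low as the tumor cells for this gene.

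Against skeletal muscle, 7 of 16 TCA genes and 7 of 10 carriers tested were lower in tumor nuclei on the TMM scale, where 9.95% of all genes were. Of each list 4 were also lower on library totals, where 8.32% of all genes were. Of 14 biogenesis genes tested, 3 were lower and 1 higher on the TMM scale, where 9.95% and 11.5% of all genes were. The median log2 fold change of that list was -0.24 relative to all genes. slc25a4, the muscle and heart form of the ATP/ADP carrier in mammals, had 7.29, 7.84 and 11.1 CPM in tumor nuclei, against 490, 669 and 241 CPM in muscle nuclei (log2 fold change -6.20 ± 0.69, SE, edgeR adjusted p = 1.5e-08). ppargc1a, the coactivator known for raising mitochondrial content, had 8.24, 35.3 and 13.3 CPM in tumor nuclei, against 697, 749.7 and 1000.4 CPM in muscle nuclei, and esrra, its nuclear receptor partner, had 21.2, 7.84 and 28.7 CPM against 377, 525 and 184 CPM. nrf1, a transcription factor of respiratory genes, went the other way, with 26.0, 39.2 and 21.4 CPM in tumor nuclei against 0, 2.68 and 4.08 CPM in muscle nuclei. With a floor of 3 counts, the 0 in muscle nuclei of Zebra1 allows up to 56.5 CPM. All 4 genes were called on both scales.

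Against liver, 9 of 16 TCA genes, 7 of 10 carriers and 4 of 14 biogenesis genes tested were lower in tumor nuclei on the TMM scale, where 15.6% of all genes were. Of these, 2, 4 and 1 were also lower on library totals, where 8.28% of all genes were. On library totals 4 TCA genes, 1 carrier, 6 biogenesis genes and 4 other assembly factors were higher, where 51.4% of all genes were. slc25a5, the ATP/ADP carrier of many tissues, had 624, 737 and 549.8 CPM in tumor nuclei, against 3383, 6103 and 1578 CPM in liver nuclei. suclg1 had 70.3, 31.3 and 37.6 CPM in tumor nuclei, against 358, 284 and 302 CPM in liver nuclei. The biogenesis gene lower on both scales was ppargc1a, with 228, 122 and 1110.4 CPM in liver nuclei. These 3 genes did not overlap between tumor and liver nuclei. In ckba germ cells the same lists had 3 of 16, 5 of 9 and 2 of 9 genes lower than in tumor cells on the TMM scale and 3 of 29 other assembly factors, where 15.5% of all genes were lower. Of these slc25a5 alone was called on library totals too, at 505 CPM, where tumor cells had 3538 and 2882 CPM. On library totals 2 TCA genes and 2 other assembly factors were higher, where 20.4% of all genes were higher and 4.23% lower.

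The samples of cells differed from each other in several of these genes within tumor cells. cox6a2 had 0.186 and 253 CPM in tumor cells of samples E and F, and 37.8 and 18.3 CPM in their macrophages. Every tumor cluster of sample E was at most 0.307 CPM, and those of sample F were between 142 and 373 CPM. cox7a1 had 10.0 and 79.1 CPM in tumor cells of samples E and F, and 13.8 and 12.7 CPM in macrophages. Macrophages thus did not share the difference, but some other classes differed in the same direction. In erythrocytes the differences were smaller, as ratios, than in tumor cells. There cox6a2 had 116 and 396 CPM and cox7a1 18 and 57.5 CPM in samples E and F. ndufa4 had 41.6 and 0.739 CPM in tumor cells, and atp5f1, the stator subunit b of complex V, had 616 and 176 CPM. Of the mt- genes, mt-atp6 had 790 and 2393 CPM and mt-co2 3288 and 1501 CPM in tumor cells of samples E and F. Per all UMIs of the class, the difference in mt-atp6 was as large in erythrocytes (508 and 1960 CPM) and in iridophores (590.0 and 2023 CPM). It was not as large in macrophages. Hemoglobin, pancreas and mt- genes took a larger part of erythrocyte UMIs in sample E than in sample F, which lowers CPM in sample E more. Erythrocyte levels of these single genes without them in the totals are not given here. The iridophores of sample F were 17 cells, with 21272 CPM of mt- transcripts in the summed UMIs but 11023 CPM as a mean over cells. Transcripts of ribosomal proteins made 41.4% of tumor UMIs in sample E and 25.7% in sample F. With 1 library on each side no test was made, and the fish, the tumor and the library cannot be told apart.

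**Figure D5:**
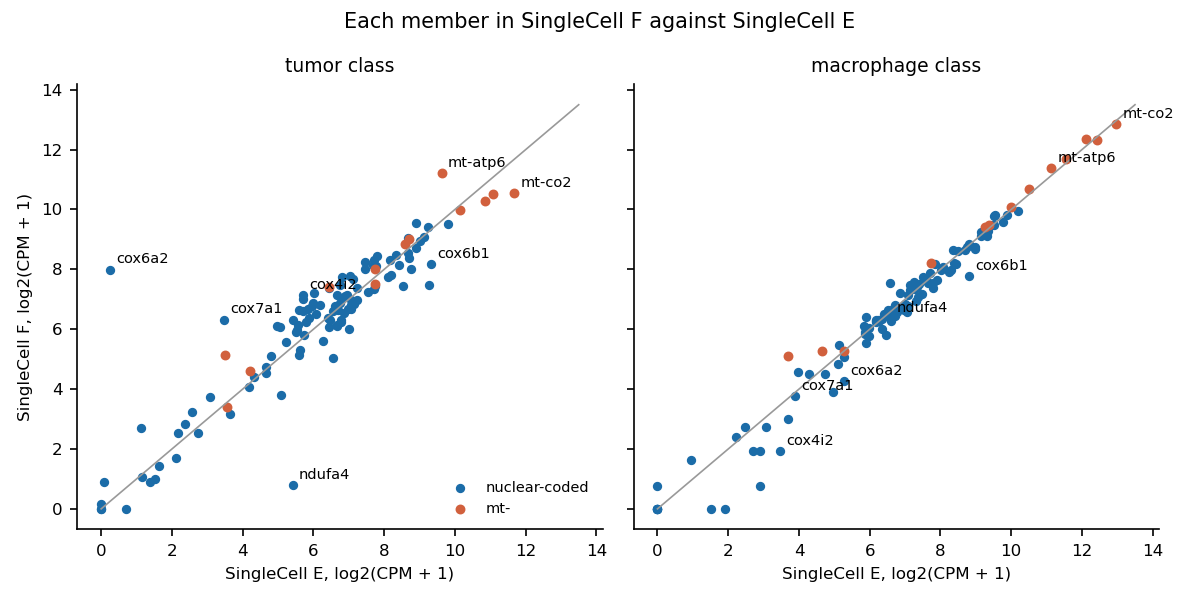
Level of every oxidative phosphorylation gene in sample F against sample E, as log2(CPM + 1), in tumor cells (left) and macrophages (right), with the diagonal of equal levels. cox6a2 stands far above the diagonal in tumor cells (0.186 and 253 CPM in E and F) and near it in macrophages (37.8 and 18.3 CPM).

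Tumor cells fell into several clusters, and their nuclear-coded sums were spread more widely than those of the samples. The cluster led by the immediate-early genes fosab, jun and egr1 was lowest, at 11556 CPM (E) and 8040 CPM (F), with 12800 and 9519 CPM of mt- transcripts. A cluster of small libraries, with a median of 3927 and 3595 UMIs per cell, was at 22684 and 25822 CPM. The cluster led in sample E by the heat shock gene hsp70l was at 14502 and 13445 CPM, and the one led there by s100a10b at 16182 and 15083 CPM. The order of these 4 clusters was the same in both samples. A further cluster was at 14581 CPM in sample E and at 24763 CPM over the 23 cells of sample F. The cluster with the fewest UMIs per cell thus had the highest sum of these 4 in both samples, and the part of depth in it was not tested.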

How the data were processed

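The authors deposited UMI counts as Cell Ranger wrote them, not normalized: for cells those of the barcodes it called as cells, for nuclei those of every barcode, with hashtags in the same table. The submitters' processing notes list Cell Ranger 3.1.0 for the cells, Cell Ranger 5.0.1 for the nuclei and GRCz10. Libraries held 33314558 and 14364782 UMIs in samples E and F and 115656723 in nuclei. The design text gives 2 fish for the cells while the study's text gives 2 in one place and 3 in another, so samples E and F were taken as replicates by their labels, and p-values measure the spread between libraries, which may in part be technical. The array positions deposited for the tissue sections were not used here.

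Cells needed at least 200 genes and at most 20% mt- UMIs, nuclei also at least 500 UMIs and exactly 1 hashtag above 2 times its median. Predicted doublets of nuclei (259, scanpy 1.11.5) were left out. Clustering used Seurat 5.3.0 and sctransform 0.4.2 at resolution 0.8 on 3000 variable features without the 119 genes, and clusters were named by marker lists. Clusters of erythrocyte nuclei were left out. The dividing cluster was split, after its values were seen, by BRAF and EGFP against ddx4 and piwil1. UMIs were summed per class and sample or fish, over 98793 to 16146885 UMIs in cells and 53057 to 29919920 in nuclei, and fitted across all genes with edgeR 4.0.16, by its quasi-likelihood test after filterByExpr and TMM scaling, at a Benjamini-Hochberg adjusted p of 0.05. The fit on library totals without TMM factors was added after the data were seen. DESeq2 1.42.0 was an alternative. Counts were also simulated with 200 changed genes, drawn at random from all genes, and with means that were otherwise the same in all classes. The recovery below is thus that of genes at large under this setting, not that of the 119 genes. For dividing tumor cells over tumor cells, edgeR recovered 5% of 4-fold and 60% of 16-fold changes. It recovered 10% and 62% for tumor over erythrocytes, and 0% and 8% for ckba germ cells over tumor. These shares were 29% and 73% against leukocytes, 31% and 78% against skeletal muscle and 44% and 91% against liver. A gene that was not called may thus still differ. Of the 119 genes, 109 in cells and 104 in nuclei passed the filter on low counts.

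Samples E and F, and the fish of the nuclei, are shared by the classes compared. Deviations of class sums from the class means correlated within a sample at a median of 0.148 in cells (lowest 0.0523) and 0.0895 in nuclei (lowest -0.0330), and a fit with the sample or fish as a block was run beside each test. The genes named are, per comparison, up to 5 called members each way with the largest change, the same direction in every sample or fish and at least 50 UMIs, all mt- members, the members of fixed isoform lists and the members least like the nuclear-coded sum. suclg1, slc25a4, slc25a5 and the other pathway genes are the called genes of their lists with the largest change. Levels of E against F, of ddx4 germ cells and of tumor clusters were chosen for the text after their values were seen. Genes and lists were chosen with earlier results of these data known. Other tools were R 4.3.3, limma 3.58.1, Python 3.11.15, numpy 2.4.6, scipy 1.17.1, pandas 2.3.3 and matplotlib 3.10.9.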

Additional observations from a re-analysis of the deposited data

Results flagged for a closer look

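The nuclear-coded sum of tumor over lymphocytes went in opposite directions in cells and in nuclei. The log2 ratio was 0.24 and 0.48 in cells of samples E and F (mean 0.36), and -0.32, -0.20 and -0.52 in Zebra1, Zebra2 and Zebra3 of the nuclei (mean -0.35). Every sample of cells was thus above 0 and every fish of the nuclei below 0, and the difference itself was not tested. The mt- sum of tumor over lymphocytes was below 0 in both, with a mean log2 ratio of -0.67 in cells and -0.40 in nuclei. Over macrophages the nuclear-coded ratio was also below 0 in both (-0.48 in cells and -0.22 in nuclei), as was the mt- ratio (-1.49 and -0.28). The lymphocyte classes of cells and of nuclei were named by the same lists. In cells the class held few T-cell transcripts and far more of the B-cell list in sample E than in sample F. Whether the classes of cells and nuclei hold the same kinds of lymphocytes was not tested.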

How the results depend on the processing

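Results were recomputed under other settings, 1 at a time. Over the numbers that answer a comparison, 349 values under the alternatives were labelled the same as under the main setting. Of the others, 19 were labelled stronger, 25 weaker, 12 moved and 1 reversed. For a count of called genes, the same means an equal or similar count. For a ratio of sums with an SD, it means a shift smaller than that SD. The label does not check direction or the threshold, and a small shift counts as moved where the SD is small.

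For tumor over leukocytes, the fit with the sample as a replicate block called 7 nuclear-coded genes higher and 1 lower (16.3% and 10.6% of all genes), DESeq2 5 higher, 4 lower and 5 mt- lower (10.5% and 10.7%), no filter on low counts 11 higher (11.1%), and library totals gave 1 mt- lower. For tumor over erythrocytes, the block gave 2 higher (9.9%), DESeq2 1 higher, 5 lower and 2 mt- lower (8.27% and 5.71%), no filter 1 higher (5.19%) and library totals 5 higher. For ckba germ cells over tumor, DESeq2 gave 15 higher, 7 lower and 0 mt- lower (13.4% and 3.87%), no filter 13 lower and 3 mt- lower (5.51%), library totals 9 higher, 5 lower and 0 mt- lower, and the whole dividing cluster as 1 class 1 higher (8.32%). For tumor over skeletal muscle, the block gave 5 mt- lower (10.9%), DESeq2 8 mt- lower (11.5%), no filter 9 lower and 0 mt- lower (5.53%), and library totals 12 lower. For tumor over liver, library totals gave 7 higher, 10 lower and 3 mt- lower. The cause of these differences was not tested, except that library totals apply no TMM factor. The block changed no other count by over 1.5 times.

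Leaving out 1 sample of cells left the tumor class with 1 sample, so counts of called genes from those fits are not given. Against skeletal muscle, leaving out 1 fish gave 1 nuclear-coded gene higher, 6 to 25 lower (6 without Zebra2 and 16 without Zebra3) and 0 to 5 mt- lower. Against liver it gave 1 to 2 higher, 50 to 64 lower and 10 mt- lower. The share of all genes called in these fits is not given here. The counts thus do not show whether these genes changed more than others.

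Of the summed levels, tumor over erythrocytes reversed for nuclear-coded transcripts, to a log2 ratio of -0.18, and moved to -0.74 for mt- transcripts when hemoglobin, pancreas and mt- genes were left out of the totals. The mt- ratio of tumor over leukocytes moved to -1.20 as a mean over cells and to -1.10 without the top 5% of doublet scores. The nuclear-coded ratio of dividing tumor cells over tumor cells moved to 0.36 with those genes left out, 0.51 as a mean over cells, 0.32 with the 119 genes among the clustering features, 0.38 at resolution 1.6, 0.48 without the top doublet scores and 0.43 with the whole dividing cluster. The nuclear-coded ratio of ckba germ cells over tumor cells moved to 0.74 as a mean over cells and 0.38 without the top doublet scores, and the mt- ratio to -0.50 as a mean over cells.

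Of the named genes against liver, uqcrc1, ndufv3 and cox7a2a turned to log2 fold changes of 0.30, 0.32 and 0.44 on library totals, before subtraction of the median. The stricter hashtag rule of 80% left 420 nuclei and was not run, and the ckba germ cells could not be tested without sample F. A library of 112781 UMIs puts the floor of 3 counts at 26.6 CPM, so a count of 0 in the ckba germ cells allows a level of up to 26.6 CPM.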

Other observations

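Shares of paralogs in further classes and genes that belong in no comparison are given as values. In the COX7A family cox7a1 made 54.4% and 41.3% of transcripts in skeletal muscle nuclei of Zebra2 and Zebra3, against 21.3%, 13.6% and 16.0% in tumor nuclei of Zebra1, Zebra2 and Zebra3. In the COX6B pair cox6b1 made 45.1%, 42.9% and 42.4% in tumor nuclei of the 3 fish and 0.261% and 0.417% in oocyte nuclei of Zebra1 and Zebra2, and it had a count of 0 in the ckba germ cells.

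The class of cells with epcam and rbp4 had the lowest nuclear-coded mean of the 14 cell classes, 7941 CPM, beside 16209 CPM of mt- transcripts, a ratio of 0.493. A class with few UMIs per cell and apoa2 had 25066 CPM of mt- transcripts in the summed UMIs, second to macrophages, and a ratio of 0.501. As a mean over cells its mt- level was 47386 CPM in sample E, so its rank holds for the summed UMIs only. Summed mt- transcripts of iridophores were at 10333 CPM over 71 cells in E and 21272 CPM over 17 cells in F, but as a mean over cells they were at 10642 and 11023 CPM.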
